A study of Homo sapiens with 8 samples.

Results

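The CCN genes encode a family of secreted matricellular proteins, that is, proteins that sit in the extracellular matrix and signal to cells rather than building it. Members CCN1 to CCN5 were taken from the table of gene counts by their Ensembl identifiers, which carry the older symbols CYR61, CTGF, NOV, WISP1 and WISP2 in GENCODE release 29. All 5 were found among the 58735 genes of the table, and 3 of them, CCN1, CCN2 and CCN3, passed the filter on low counts that left 15647 genes for testing. The libraries came from SRA01/04, an immortalised line of human lens epithelial cells. In 4 libraries the cells carried a short hairpin RNA against the ubiquitin ligase gene SMURF1 (shSmurf1, labelled Smurf1 knockdown), and in 4 libraries a control hairpin (shControl, labelled WT). All 8 cultures had been exposed to 20 ng/ml of recombinant TGF-β2 over 48 h. The levels below are therefore those of TGF-β2-treated cells, and no library without it was analysed here. The labels name a single knockdown and no rescue. The replicates are labelled biological, but no label says that each was its own culture from the start, so p-values cover the spread between these libraries, which may be technical.

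CCN proteins are assembled from modules that resemble the IGF-binding proteins, von Willebrand factor type C, thrombospondin repeats and a cystine knot, the last of which CCN5 lacks. They act through integrins, heparan sulfate proteoglycans such as syndecan-4, and LRP receptors, and they bind growth factors of the TGF-β superfamily. CCN1 and CCN2 are classical transcriptional targets of YAP and TAZ with TEAD factors, and CCN2 is also a direct target of TGF-β signalling. In the lens, CCN2 is known as a mediator of the matrix changes that follow TGF-β in epithelial cells.

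Library totals were 14688651 to 16789144 counts in shSmurf1 and 15000813 to 17030394 in shControl. SMURF1 itself, read as a check of the labels, lay at 51.4, 50.4, 51.4 and 51.2 CPM (counts scaled by library size) in shSmurf1 replicates 1 to 4, against 85.8, 93.3, 88.5 and 88.1 CPM in shControl replicates 1 to 4. It remained at 57.5% of control (log2 fold change −0.80 ± 0.055 SE, edgeR adjusted p = 2.86e-09). TRRAP overlaps SMURF1 on the opposite strand, and the labels describe no step that marks the strand. The library labelled shSmurf1 replicate 3 stood apart: its root mean square difference in log2 CPM from the other 3 of its group was 0.391 to 0.409, against 0.327 to 0.345 among the other pairs of libraries within a group. Of the 22 lens markers listed, 8 were tested. The lens transcription factors PAX6 (34.0 and 33.3 CPM in shSmurf1 and shControl) and SIX3 (12.6 and 16.2 CPM) were expressed, while LIM2 and SOX1 had 0 counts in every library and CRYAA, MIP and FOXE3 had at most 3. The summed CPM of the lens list was 1982 to 2320 in shSmurf1 and 2565 to 2605 in shControl, most of it from vimentin, and its part in the CCN levels was not tested. In such bulk libraries, fewer cells of a type and less RNA per cell cannot be told apart.

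CCN2, connective tissue growth factor, lies at chr6:131948176-131951373 on the minus strand of GRCh38. Its promoter is printed because the GGAATG sequence that TEAD factors are known to bind recurs in it, and because CCN2 and other TEAD targets are compared between the groups below. The stretch runs from 250 bases before the start of the gene to 50 bases after it, as RefSeq gives it for GRCh38.p14 at chr6:131951323-131951622, and reads 5′ to 3′ along the minus strand with GGAATG in capitals.
CCN2 promoter: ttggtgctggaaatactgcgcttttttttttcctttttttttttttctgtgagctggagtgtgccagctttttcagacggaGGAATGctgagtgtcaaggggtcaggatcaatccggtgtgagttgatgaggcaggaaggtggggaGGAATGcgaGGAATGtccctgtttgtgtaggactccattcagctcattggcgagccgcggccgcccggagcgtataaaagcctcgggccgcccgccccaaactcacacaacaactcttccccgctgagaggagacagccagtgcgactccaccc
The motif GGAATG was searched on both strands and matched 3 times, each on the strand of the gene, with first bases at −169, −104 and −95 relative to the gene start. Of 35116 promoters of the same length in the RefSeq table, 14% held at least 1 GGAATG and 45 promoters, or 0.128%, held 3 or more. The 5-base motif CAGAC, to which SMAD3 and SMAD4 are known to bind, matched once, at −177, as in 45.3% of all promoters. TATAAA matched at −32 (in 11.5% of promoters). The AP-1 motif TGANTCA, held by 7.71% of promoters, and the CArG box of serum response factor, held by 1.29%, had no match in these letters. None of these matches overlaps another. They are a description of the sequence, and of the 5 CCN genes CCN2 alone was matched in the promoter table.

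CCN1 and CCN2 were lower in shSmurf1 than in shControl, while CCN3 did not pass the test. These 2 of the 3 CCN genes tested compare with 22.5% of all 15647 genes called changed by edgeR's quasi-likelihood test at a Benjamini-Hochberg adjusted p under 0.05, with 12.2% called lower and 10.3% called higher. Leaving out shSmurf1 replicate 3 raised the count over all genes to 5348, against 3527 with it, and left both CCN calls in place, with log2 fold changes of −0.89 for CCN1 and −0.83 for CCN2. In both genes the 4 shSmurf1 libraries lay below all 4 shControl libraries, a separation in that direction that 13.1% of all genes tested showed. In either direction 23.7% had groups that did not overlap.

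CCN1, a ligand of several integrins that supports cell adhesion and migration, lies at chr1:85580761-85583962 on the plus strand. It had 370, 394, 400 and 429 CPM in shSmurf1 replicates 1 to 4, from 5773 to 7193 counts, against 743, 747, 726 and 725 CPM in shControl replicates 1 to 4, from 11090 to 12455 counts. The control libraries lay close together, with a coefficient of variation of 1.57%, and the shSmurf1 libraries spread more, at 6.09%. CCN1 fell to 54.1% of control (log2 fold change −0.89 ± 0.048 SE, 95% interval −0.99 to −0.79, edgeR adjusted p = 1.10e-10). Of all genes tested, 227 (1.45%) had a more negative log2 fold change.

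CCN2 had 362, 373, 396 and 385 CPM in shSmurf1 replicates 1 to 4, from 5556 to 6468 counts, against 600, 708, 691 and 657 CPM in shControl replicates 1 to 4, from 10054 to 11096 counts. In contrast to CCN1, the wider spread was in the controls (7.17%, against 3.86% in shSmurf1), with shControl replicate 1 the lowest of its group. CCN2 fell to 57.1% of control (log2 fold change −0.81 ± 0.053 SE, 95% interval −0.92 to −0.70, edgeR adjusted p = 1.54e-09), and 284 genes (1.82%) had a more negative log2 fold change. The antisense gene AL133346.1 shares 195 of the 2339 exonic bases of CCN2. Within these shared bases, reads of the 2 genes cannot be told apart without strand. AL133346.1 was assigned at most 1 count per shSmurf1 library and at most 2 per shControl library.

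**Figure D1:**
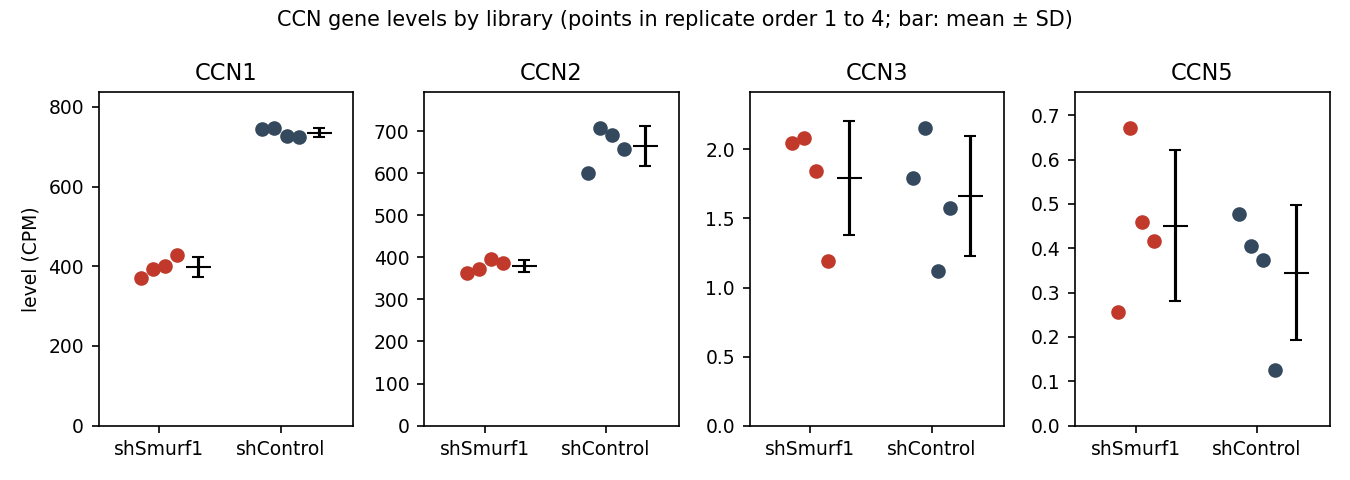
Level in CPM (vertical axes, each from 0 and with its own scale) of CCN1, CCN2, CCN3 and CCN5 in the 4 shSmurf1 (red) and 4 shControl (dark) libraries; points are libraries and bars give the mean ± SD. CCN1 lay at 370 to 429 CPM in shSmurf1 and 725 to 747 in shControl, CCN2 at 362 to 396 and 600 to 708, and the groups overlapped for CCN3 and CCN5.

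Both genes were among the most abundant transcripts. Per length, in TPM (counts divided by exon length and scaled to the same sum in every library), CCN1 averaged 613 (571 to 664) in shSmurf1 and 1161 (1139 to 1187) in shControl. By TPM its rank among protein-coding genes was 119 to 150 in shSmurf1 libraries and 49 to 55 in shControl libraries. CCN2 averaged 613 TPM (587 to 626) in shSmurf1 and 1101 TPM (972 to 1180) in shControl, with ranks of 120 to 142 and 50 to 68. The levels per length of CCN1 and CCN2 therefore stood beside each other in each group. Their ratio, CCN2 over CCN1, was 1.0 ± 0.0429 in shSmurf1 and 0.948 ± 0.0703 in shControl (SD, n = 4 each), and the ranges of the 2 groups overlapped.

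**Figure D2:**
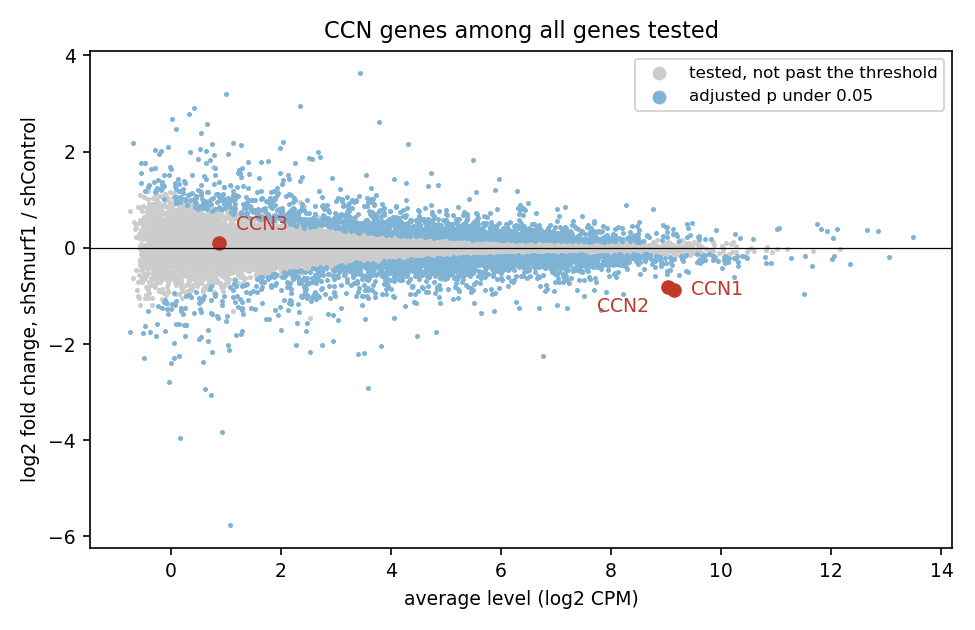
Log2 fold change of shSmurf1 over shControl (vertical axis) against the average level in log2 CPM (horizontal axis) for all 15647 genes tested; blue points have an adjusted p under 0.05. CCN1 (−0.89) and CCN2 (−0.81) lie side by side at a high level and below 0, and CCN3 (0.11) lies near 0 at a low level.

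CCN3, known in several cell types as a counterpart of CCN2 with opposing effects on matrix production, was near the lower end of what was tested. It had 32, 31, 28 and 20 counts in shSmurf1 replicates 1 to 4, or 1.79 ± 0.414 CPM, against 30, 32, 18 and 25 counts in shControl replicates 1 to 4, or 1.66 ± 0.432 CPM (SD, n = 4 each). The groups overlapped. CCN3 did not pass the test (log2 fold change 0.11 ± 0.28 SE, edgeR adjusted p = 0.832), and the 95% interval of the fold, 0.720 to 1.61, spans changes in either direction. Without shControl replicate 3 the sign of its log2 fold change turned, to −0.043. The gene lies at chr8:119416306-119424353 on the plus strand, and per length it averaged 2.54 TPM in shSmurf1 and 2.40 TPM in shControl.

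CCN5, the member without the cystine knot, at chr20:44714844-44728509 on the plus strand, was below the filter. It had 4, 10, 7 and 7 counts in shSmurf1 (28 summed, exact Poisson 95% interval 18.6 to 40.5) against 8, 6, 6 and 2 in shControl (22 summed, 13.8 to 33.3). These intervals cover counting error only. In a fit with no filter its log2 fold change was 0.37 ± 0.60 SE (edgeR adjusted p = 0.761), and no difference was detected at these counts. CCN4, a target of WNT signalling at chr8:133191039-133231690 on the plus strand, had 0 counts in all 8 libraries, which allows up to 0.178 to 0.202 CPM per library at a floor of 3 counts. CCN6, the remaining gene of the family, which the member rule leaves out, had 22 counts summed over shSmurf1 and 13 over shControl. Its 3′ end shares 193 exonic bases with TUBE1 on the opposite strand, and in the fit with no filter it did not pass (log2 fold change 0.77 ± 0.72 SE, edgeR adjusted p = 0.568).

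Summed per length, the 5 CCN genes reached 1229 ± 54.9 TPM in shSmurf1 and 2265 ± 115 TPM in shControl (SD, n = 4 each). CCN1 and CCN2 made up 99.72% to 99.84% of that sum in shSmurf1 and 99.85% to 99.92% in shControl. The order of levels was CCN1 and CCN2 together at the top, then CCN3 and CCN5 far below them, with CCN4 at 0. CCN1 and CCN2 had overlapping levels per length in both groups, whereas the highest CCN3 level, 3.14 TPM, stood far below either. CCN5 was lower per length than CCN3 in every library.

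Whether the members changed unequally was asked with the log2 ratio of counts between pairs of CCN genes within each library, which does not depend on how libraries are scaled. Exact two-sided permutation tests were run for 3 pairs, with p-values adjusted over them, and with 4 libraries a group the smallest p they can give is 0.0286. The CCN1 to CCN2 ratio differed by −0.08 between shSmurf1 and shControl (95% interval −0.295 to 0.08, exact permutation p = 0.286, adjusted p = 0.286). The CCN1 to CCN3 ratio differed by −0.99 (95% interval −1.775 to 0, exact permutation p = 0.0571, adjusted p = 0.0857). The CCN2 to CCN3 ratio differed by −0.91 (95% interval −1.735 to −0.075, exact permutation p = 0.0286, adjusted p = 0.0857), and here the 4 shSmurf1 libraries all lay below the 4 shControl libraries. A single pair at the smallest p becomes 0.0857 after adjustment over 3 pairs and so cannot pass alone, and the tests leave undecided whether CCN3 changed unlike the other members. The ratio to CCN3 rests on 18 to 32 counts of CCN3 per library.

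Among the 10 nearest tested genes on each side of CCN1, a span of 4.25 Mb, the median log2 fold change was −0.54, against 0.01 over all genes tested. Of these 20 neighbours, 13 fell, 7 did not pass and 0 rose by edgeR, where 12.2% of all genes tested fell and 10.3% rose, with 0 higher at an unadjusted p under 0.05 and 0 higher by DESeq2 or limma-voom. DDAH1, an enzyme that clears methylated arginine, lay at 109, 107, 120 and 110 CPM in shSmurf1 against 178, 176, 163 and 173 CPM in shControl (log2 fold change −0.63, edgeR adjusted p = 5.10e-08). BCL10 (−0.72) and SYDE2 (−0.64) on the same side and ZNHIT6 (−0.55) on the other side fell too. Further along that other side, CLCA2 (−0.27), SH3GLB1 (0.01) and HS2ST1 (−0.10) did not pass, and SELENOF (−0.21) and LMO4 (−0.21) fell less. A gene that overlaps DDAH1 on the same strand (−0.98) is counted among the 13 that fell. All of these neighbours were named after their values were seen. CCN1 itself stood at −0.35 relative to the median log2 fold change of its neighbours. No measurement of DNA was analysed here, so a change in CCN1 alone and a change shared by its stretch of the chromosome cannot be told apart.

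For CCN2 the 20 neighbours, over 6.71 Mb, had a median log2 fold change of −0.02, with 4 lower and 2 higher, near the 12.2% and 10.3% of all genes tested. Its nearest neighbours ENPP1 (−0.11), MED23 (−0.03), MOXD1 (−0.03) and STX7 (0.10) did not pass. CCN2 thus stood at −0.79 relative to the median of its neighbours. The neighbours of CCN3 had a median of −0.05 and those of CCN5 of −0.08 (0.0025 with 5 genes on each side). The 20 around CCN4, which itself had no counts, had a median of −0.16 with 7 lower and 0 higher by edgeR, DESeq2 and limma-voom and 0 at an unadjusted p under 0.05 (1 higher with the GC trend removed). With 5 genes on each side of CCN4 the median was −0.06, with 3 of 10 lower.

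**Figure D3:**
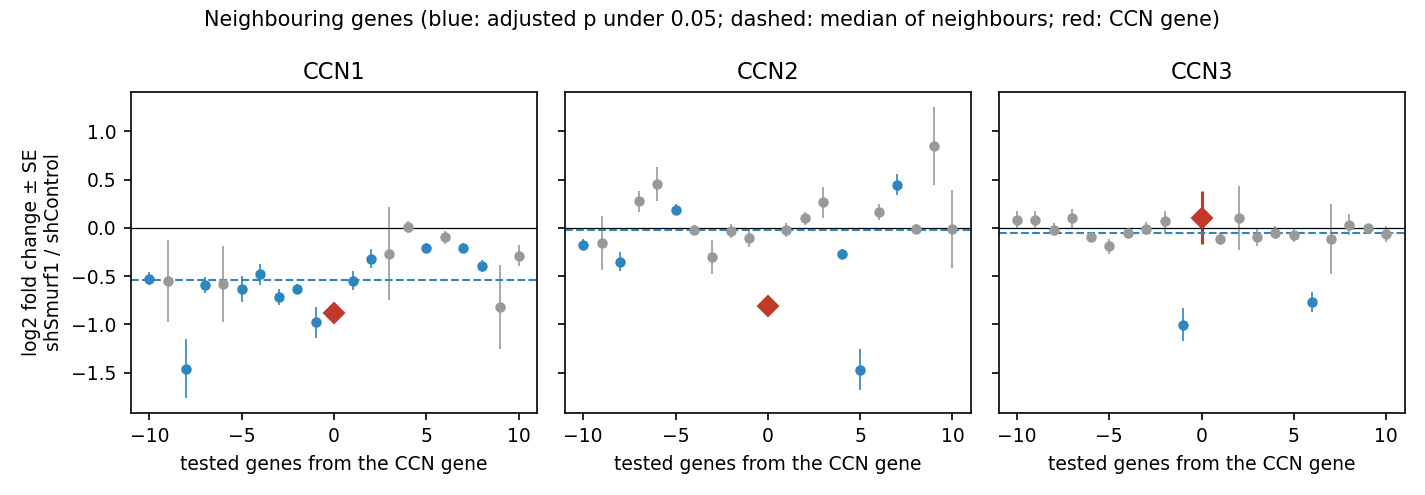
Log2 fold change ± SE of shSmurf1 over shControl (vertical axis) for the 10 tested genes on each side of CCN1, CCN2 and CCN3, in their order along the chromosome (horizontal axis); blue points passed the test, grey points did not, and the dashed line is the neighbours' median. The neighbours of CCN1 lie mostly below 0 (median −0.54), and those of CCN2 (−0.02) and CCN3 (−0.05) lie around 0.

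Across the 8 libraries, the genes whose log2 CPM profiles lay nearest to CCN1, by the root mean square difference after centring each gene on its mean, were ARID5B (0.0319), VEPH1 (0.0414), HK2 (0.0486), ARFGEF3 (0.0519) and ROR1 (0.0543), of 11218 protein-coding genes compared. ARID5B is a DNA-binding protein of chromatin, HK2 a hexokinase and ROR1 a receptor for WNT5A. ARID5B, the nearest, had 37.2, 39.7, 41.0 and 42.4 CPM in shSmurf1 against 70.9, 75.1, 70.5 and 71.9 CPM in shControl. The nearest to CCN2 were KRTAP2-3 (0.0417), SMURF1 itself (0.0533), TAGLN (0.0544), WWC1 (0.0590) and VEPH1 (0.0605). TAGLN encodes the actin-binding protein transgelin, and WWC1 encodes KIBRA, an upstream component of the Hippo pathway. CCN1 and CCN2 differed from each other by 0.0877, which placed CCN2 at rank 20 for CCN1 and CCN1 at rank 14 for CCN2. These distances are descriptions over 8 libraries in 2 groups, so most of each profile is the step between the groups. VEPH1 overlaps PTX3 and TAGLN overlaps PCSK7, each on the opposite strand.

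**Figure D4:**
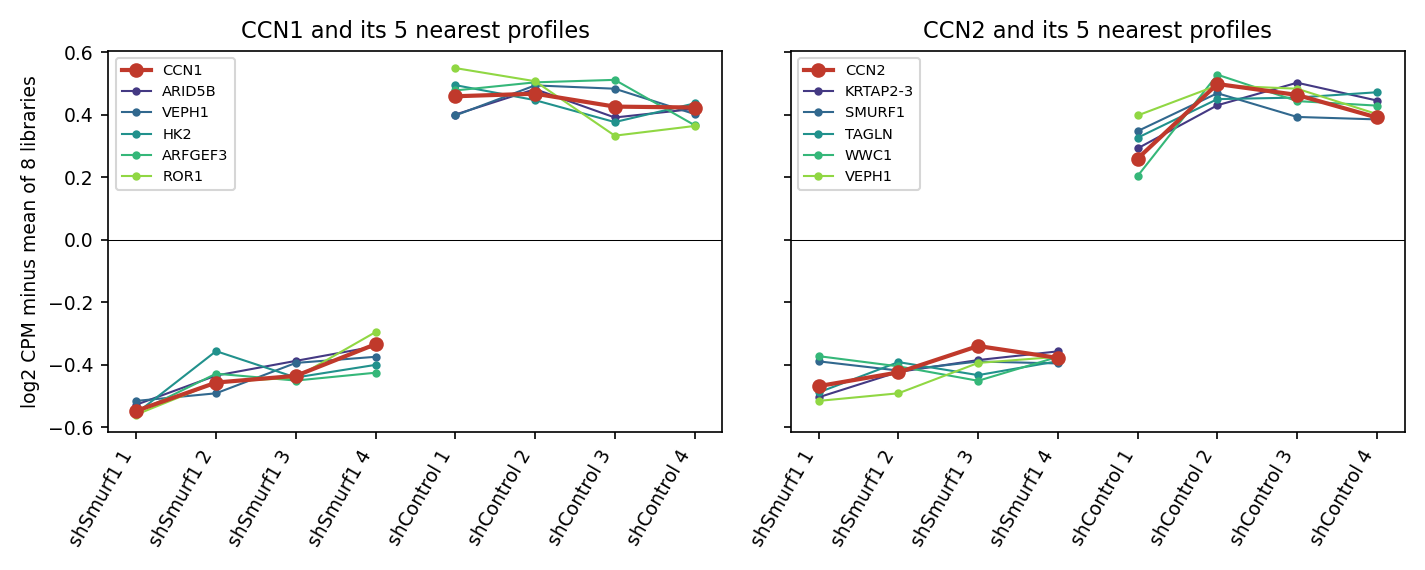
Log2 CPM minus the mean of the 8 libraries (vertical axis) in each library (horizontal axis, replicates 1 to 4 of shSmurf1 and then of shControl) for CCN1 and CCN2 in red and their 5 nearest genes each; lines join the libraries of a group and carry no order. All of these genes lie below 0 in the 4 shSmurf1 libraries and above 0 in the 4 shControl libraries.

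Genes known to regulate CCN1 and CCN2 moved in both directions. Of 29 tested regulators of 30 listed, 3 rose, 11 fell and 15 did not pass, with a median log2 fold change of −0.12 against 0.01 over all genes tested, of which 10.3% rose and 12.2% fell. YAP1, the coactivator of TEAD factors, lay at 187, 183, 188 and 180 CPM in shSmurf1 against 215, 229, 231 and 223 CPM in shControl and fell by 0.28 on the log2 scale (± 0.047 SE, edgeR adjusted p = 0.000172). TEAD1 (−0.23) fell, while TEAD2 (0.21), TEAD3 (−0.12) and TEAD4 (−0.12) did not pass. WWTR1, which encodes TAZ, was at −0.24 with an edgeR adjusted p of 0.0338 and passed in 11 of 17 other settings. The AP-1 subunits JUN (−0.37) and FOSL1 (−0.46) fell, while JUNB rose by 0.64. SMAD3, a transducer of TGF-β signals, was called higher (0.15, edgeR adjusted p = 0.0264) and passed in 11 of 17 other settings, and SMAD4 (0.03) did not pass. YAP1, TEAD1 to TEAD4, WWTR1, JUN, FOSL1, SMAD3, SMAD4 and the AMOT relative AMOTL1 were named after their values were seen.

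The largest change among the regulators was in AMOT, which encodes angiomotin, a protein that binds YAP and holds it in the cytoplasm and at junctions. AMOT lay at 24.9, 22.8, 22.4 and 23.5 CPM in shSmurf1 against 3.76, 4.04, 4.11 and 3.28 CPM in shControl. It was 6.15-fold higher (log2 fold change 2.62 ± 0.11 SE, edgeR adjusted p = 3.88e-12), and its relatives were at −0.17 (AMOTL1, which passed) and −0.02 (AMOTL2, which did not). VGLL3, a cofactor of TEAD factors (−0.57), and the transcription factor ETS1 (−0.48) fell. RHOA, the small GTPase of the actin cytoskeleton, did not pass (0.06, adjusted p = 0.469).

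Of 20 other YAP/TEAD target genes, all tested, 11 fell, 0 rose and 9 did not pass, with a median log2 fold change of −0.15; of all genes tested 12.2% fell. At an unadjusted p under 0.05 edgeR put 2 higher, DESeq2 and limma-voom called 0 higher, and 1 was higher with the GC trend removed (with or without the replicate block), with no scaling beyond the library total, or without shSmurf1 replicate 1 or 3. ANKRD1, an ankyrin repeat protein and a standard readout of YAP, lay at 68.3, 79.3, 92.1 and 79.0 CPM in shSmurf1 against 186, 191, 170 and 175 CPM in shControl. It fell to 44.1% of control (−1.18 ± 0.071 SE, edgeR adjusted p = 5.05e-10). CCDC80, a secreted matrix protein (−0.71), F3, tissue factor (−0.71), and NT5E, a nucleotidase of the cell surface (−0.52), fell, while the receptor kinase AXL (−0.02) and CRIM1, a transmembrane protein (−0.07), did not pass. Of the 20, 15 had a promoter in the RefSeq table and 6 of these held GGAATG, which 14% of all promoters hold. Of these 6, ANKRD1 and PTPN14 fell while NUAK2, LATS2, FOXF2 and TGFB2 did not pass, and MYOF, F3, CCDC80 and NT5E were among those that fell with no match. The lists share genes: AMOTL2 and LATS2 are also counted among the regulators above. IGFBP3, one of the 11 that fell, is also counted among the IGFBP genes below.

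Of 16 receptors of CCN proteins listed, 13 were tested, of which 2 rose, 3 fell and 8 did not pass, with a median log2 fold change of −0.04. Over all genes tested 10.3% rose and 12.2% fell, and no test of the list as a set was run. The heparan sulfate proteoglycan SDC4 (−0.36 ± 0.060 SE, edgeR adjusted p = 0.000180) and the integrin subunit ITGB1 (−0.20) fell, and ITGB5 rose (0.19). ITGB5 passed in 17 of 17 other settings. IGF2R, named outside the rule, was called higher near the threshold (0.15, edgeR adjusted p = 0.0481). It did not pass with DESeq2 size factors or with the replicate block. Nor did it pass when shControl replicate 1, 2, 3 or 4 or shSmurf1 replicate 1, 2 or 4 was left out. ITGB3 (−0.21, edgeR adjusted p = 0.0282) was also called lower. The number of receptors called was 3 without shControl replicate 3 or 4 or without shSmurf1 replicate 1 or 2. In each of these fits neither ITGB3 (edgeR adjusted p up to 0.113) nor IGF2R passed. ITGA6 (−0.04) and the endocytic receptor LRP1 (−0.07) did not pass.

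Among growth factors and matrix proteins that bind CCN proteins, 10 of 14 were tested, of which 1 rose, 3 fell and 6 did not pass, with a median of −0.10, where 10.3% of all genes tested rose and 12.2% fell. BMP4, which CCN2 binds and antagonises, lay at 5.96, 5.37, 5.33 and 4.17 CPM in shSmurf1 against 9.25, 11.9, 11.2 and 9.21 CPM in shControl (50.1% of control, edgeR adjusted p = 3.57e-05). VEGFA, the angiogenic factor (−0.50), and SLIT3, a guidance ligand (−0.42), fell, and FN1, fibronectin, rose (0.21). TGFB1 (0.08) and FGF2 (−0.05) did not pass, and both changed sign with the GC trend removed. They passed only in the fit without shSmurf1 replicate 3 (edgeR adjusted p = 0.00261 and 0.0413). HNRNPUL1, which is more abundant than TGFB1, overlaps it on the opposite strand, as do CCDC97 and TMEM91. NUDT6 overlaps FGF2 on the opposite strand. Without shSmurf1 replicate 3, 7 of the 10 passed, 3 higher and 4 lower.

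The IGFBP genes share the amino-terminal module of the CCN proteins. Of 7 listed, 6 were tested, with 3 higher, 2 lower and 1 that did not pass, and a median of 0.22, beside 10.3% higher and 12.2% lower over all genes tested. IGFBP7 lay at 215, 240, 230 and 242 CPM in shSmurf1 against 308, 326, 339 and 342 CPM in shControl (−0.51 ± 0.052 SE, edgeR adjusted p = 7.21e-07). IGFBP6 (0.39), IGFBP4 (0.38) and IGFBP5 (0.34) rose, each a secreted carrier of insulin-like growth factors, while IGFBP2 (0.10) did not pass. IGFBP3, the most abundant of the list and named after its values were seen, averaged 1009 CPM in shSmurf1 and 1131 CPM in shControl. It was called lower (−0.16, edgeR adjusted p = 0.0149) but did not pass without shSmurf1 replicate 1. The summed CPM of the list was 1327 to 1483 in shSmurf1 and 1584 to 1621 in shControl. POLR2B overlaps IGFBP7 on the opposite strand.

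Other matricellular genes also moved in both directions: of 13 tested among 16 listed, 4 rose, 5 fell and 4 did not pass, with a median of −0.07, beside 10.3% higher and 12.2% lower over all genes tested. SMOC1, a calcium-binding matrix protein that modulates BMP signalling, lay at 10.9, 8.60, 9.80 and 9.36 CPM in shSmurf1 against 34.5, 31.5, 34.2 and 37.9 CPM in shControl and fell (−1.84 ± 0.094 SE, edgeR adjusted p = 4.21e-11). POSTN, periostin, rose 2.45-fold, with 32, 39.5, 40.5 and 32.7 CPM in shSmurf1 against 14.7, 15.6, 15 and 13.7 CPM in shControl (edgeR adjusted p = 5.99e-09). TNC, tenascin-C, fell (−0.61). COMP was higher (0.72, edgeR adjusted p = 0.0401) but passed in only 9 of 17 other settings, and THBS2 (0.36) and THBS3 (−0.07) did not pass. Of the most abundant genes of this list, named after their values were seen, THBS1, thrombospondin-1 (−0.60), and TGFBI (−0.32) fell, while SPARC rose (0.37).

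**Figure D5:**
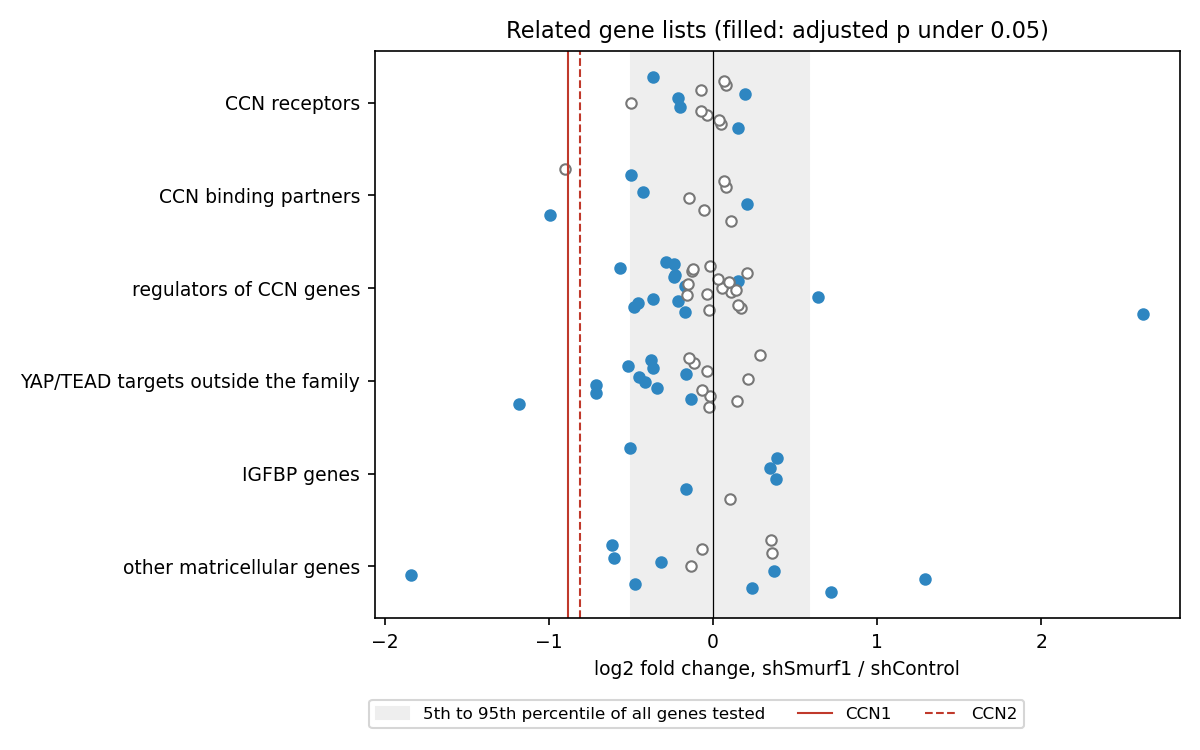
Log2 fold change of shSmurf1 over shControl (horizontal axis) of the tested genes of 6 related lists (rows); filled points passed the test, open points did not, the grey band spans the 5th to 95th percentile of all genes tested (−0.50 to 0.59), and red lines mark CCN1 and CCN2. ANKRD1, BMP4 and SMOC1 are the 3 genes past the test that lie further down than CCN1, and AMOT (2.62) lies furthest up.

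Endothelial, melanocyte and retina markers were low in both groups. The leukocyte marker CD14 was expressed, at 13.1 CPM in shSmurf1 and 6.76 CPM in shControl. Summed over a list, endothelial markers reached 1.18 to 3.27 CPM in shSmurf1 and 2.33 to 3.46 in shControl, melanocyte markers 2.503 to 3.65 and 2.98 to 4.61, and retina markers 2.75 to 3.04 and 2.55 to 3.23. Leukocyte markers reached 11.7 to 14.3 CPM in shSmurf1 and 6.33 to 9.15 in shControl, nearly all of it from CD14 (log2 fold change 0.95, edgeR adjusted p = 1.39e-05), with CD3E at 0 counts and PTPRC at 12 counts or fewer in every library. The part of CD14 in the CCN levels was not tested.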

How the data were processed

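Polyadenylated RNA of 8 SRA01/04 libraries was sequenced, and the table deposited by the authors holds whole-number read counts per gene that were not scaled. The submitters' processing notes name featureCounts (version 1.5.0-p3) and HISAT2 (version 2.0.5), with fastp and CASAVA. No genome build or annotation was stated in the sources used here, and all 58735 identifiers were found in GENCODE release 29 (GRCh38), which gave coordinates and exon lengths. Counting can lose or split reads that match several near-identical genes. Of the stretches of 50 bases in CCN1 (2405) and CCN3 (2624), 0 recurred in another gene model, and those of CCN2 that recurred did so only in its antisense gene. Stretches of CCN5 had 2 matches, in SUPT6H, and those of CCN6 had 292 matches over transcripts of many genes. A stretch can be matched more than once, and the counts of CCN6 are uncertain.

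Genes passing edgeR's filterByExpr (minimum count 10) were tested with edgeR version 4.0.16 (R version 4.3.3), with TMM scaling, a quasi-likelihood F test between the 2 groups of 4 without covariates, and Benjamini-Hochberg adjustment over 15647 genes. CPM uses TMM-scaled library sizes, and TPM divides counts by exon length. Pairs of CCN genes were compared by exact permutation tests (scipy version 1.17.1) on log2 ratios with 2 added to each count. The edgeR fit was tested on simulated counts.

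Named genes were the CCN genes, SMURF1, up to 4 changed members and 2 abundant members not past the test from each list, and the 5 nearest profiles of protein-coding genes whose average log2 CPM was 2 or more. Genes outside this rule that were named after their values were seen are marked so. Also outside it are the named neighbours of CCN2, the cell type markers and genes named for an overlap. PTPN14, NUAK2, LATS2, FOXF2, TGFB2 and MYOF, named with their promoters, are outside it too. The members and lists were chosen with earlier results of these data known. Alternatives were DESeq2 version 1.42.0 and its size factors, limma-voom (limma version 3.58.1), no scaling beyond the library total, other filters, a GC correction, a block for the replicate number, and the removal of each library in turn. Some genes are not reported here.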

Additional observations from a re-analysis of the deposited data

Results flagged for a closer look

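In groups of 4 libraries, a library was singled out when its gap to the nearest of the others, divided by the group's range, exceeded Dixon's 95% critical value for 4 samples. Chance flags about 1 in 20 groups, and 3 of the 98 groups looked at among the 50 genes that the naming rule gave were flagged. Genes named outside that rule were not screened. Among these, STX7 lay at 68.0 CPM in shSmurf1 replicate 3, against 57.7, 56.1 and 57.9 CPM in replicates 1, 2 and 4. VGLL3, the TEAD cofactor, lay at 95.9 CPM in shSmurf1 replicate 3, with the other 3 shSmurf1 libraries at 83.9 to 84.8 CPM. THBS2, thrombospondin-2, lay at 5.66 CPM in shSmurf1 replicate 4, with the others at 7.32 to 7.43 CPM, and it passed the test only in the fit without that library (edgeR adjusted p = 0.0366). TAGLN lay at 137 CPM in shControl replicate 1, with the others at 149 to 151 CPM, the same library in which CCN2 was lowest among the controls. CCN1, CCN2, CCN3, CCN5 and CCN6 had no library singled out in either group, and CCN4 had no counts to test.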

How the results depend on the processing

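CCN1 and CCN2 passed as lower and CCN3 did not pass in each of 17 other settings, so the number of CCN genes called stayed at 2. Leaving out each library gave log2 fold changes of −0.92 to −0.85 for CCN1, −0.86 to −0.78 for CCN2 and −0.04 to 0.26 for CCN3, where −0.043 without shControl replicate 3 turned the sign (adjusted p = 0.940). The count over all genes ran from 2763 to 5348, with the highest without shSmurf1 replicate 3. Changed receptors ran from 3 to 6 and changed binding partners from 4 to 7. The cause was not tested. Same-numbered libraries of the groups showed no shared deviation (r of −0.067 to 0.032 over 4 pairs, against −0.062 to 0.077 over 12 other pairs). Such values cannot decide whether same-numbered cultures were prepared together, and the labels do not say. With the replicate number as a block, 3192 genes were called, and CCN1 (−0.89), CCN2 (−0.81) and CCN3 (0.11) stayed as they were. Ratios between pairs of CCN genes kept their sign, at −0.11 to −0.03 for CCN1 to CCN2, −1.20 to −0.84 for CCN1 to CCN3 and −1.09 to −0.73 for CCN2 to CCN3. With 3 libraries against 4 the exact test cannot go below 0.0571. The 5 nearest profiles were kept in both settings tried. CCN3, CCN5 and CCN6 had at most 32 counts per library, and the fold that this depth could detect was not tested.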
